A study of Mus musculus with 109 samples.

Results

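Microglia from untreated mice in which the interleukin-10 (IL-10) receptor gene Il10ra and the cytokine gene Tnf are deleted in Cx3cr1-expressing cells were set against microglia from mice that carry the same floxed alleles without Cre. The comparison holds 11 samples of the series, 5 double mutant libraries and 6 control libraries, and leaves its other 98 samples aside. The 11 were chosen by the genotype and treatment in their labels and not by any measured value. The double mutants have the genotype CX3CR1-CreER:IL10Rafl/fl:TNFfl/fl and the controls IL10Rafl/fl:TNFfl/fl, so that both groups are homozygous for both floxed alleles. The tamoxifen-inducible Cre driven from Cx3cr1 is present in the double mutants alone. All 11 samples were at steady state, without the lipopolysaccharide (LPS) given to other mice of the study. The sources used here do not give age, sex, the tamoxifen schedule or the deleted exons. RNA from enriched brain microglia was profiled with MARS-seq, which counts reads near the 3' end of transcripts. The libraries came from 2 experiments that share no library: double mutants 1 and 2 with controls 1 to 3 (named AS_DKO_LPS_2ndexp in the labels), and double mutants 3 to 5 with controls 4 to 6 (DKO_post_LPS).

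Microglia are the resident macrophages of the brain parenchyma. IL-10 binds a receptor made of the ligand-binding chain Il10ra and the shared chain Il10rb, which signals through Jak1, Tyk2 and the transcription factor Stat3 and restrains inflammatory gene expression in macrophages. TNF acts on the receptors Tnfrsf1a and Tnfrsf1b, activates NF-kB and, through the kinase Ripk1 and caspase 8, can lead to cell death. The CX3CR1-CreER allele, as generally made, is an insertion at the Cx3cr1 locus, which encodes the fractalkine receptor of microglia, so the group difference covers this allele as well as the 2 deletions.

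Recovered sequencing depth ran from 540642 to 1450594 reads in the double mutants and from 583560 to 1410234 reads in the controls. Double mutants 1 and 5 stood apart from the other 9 libraries. Mitochondrial transcripts made up 0.0948% of normalised reads in double mutant 1, against 0.959% to 1.34% in the other 10 libraries. Over 4013 genes with a mean of at least 50 normalised reads, the median correlation with the libraries of the same experiment was 0.810 for double mutant 1 and 0.892 for double mutant 5, and at least 0.942 for each of the others. The column of double mutant 4 carries the word mistake, which its description lacks. Its labels name no conflicting genotype, and its Il10ra and Tnf values lie with the other double mutants. The same word and the same number stand in the column of a 48 h library of the other experiment, whose labels conflict. Other numbers also recur between the 2 experiments. Where leaving out double mutants 1 and 5 moved the log2 fold change of a gene described below by over 1.5 times, the value without them is given as well.

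**Figure D1:**
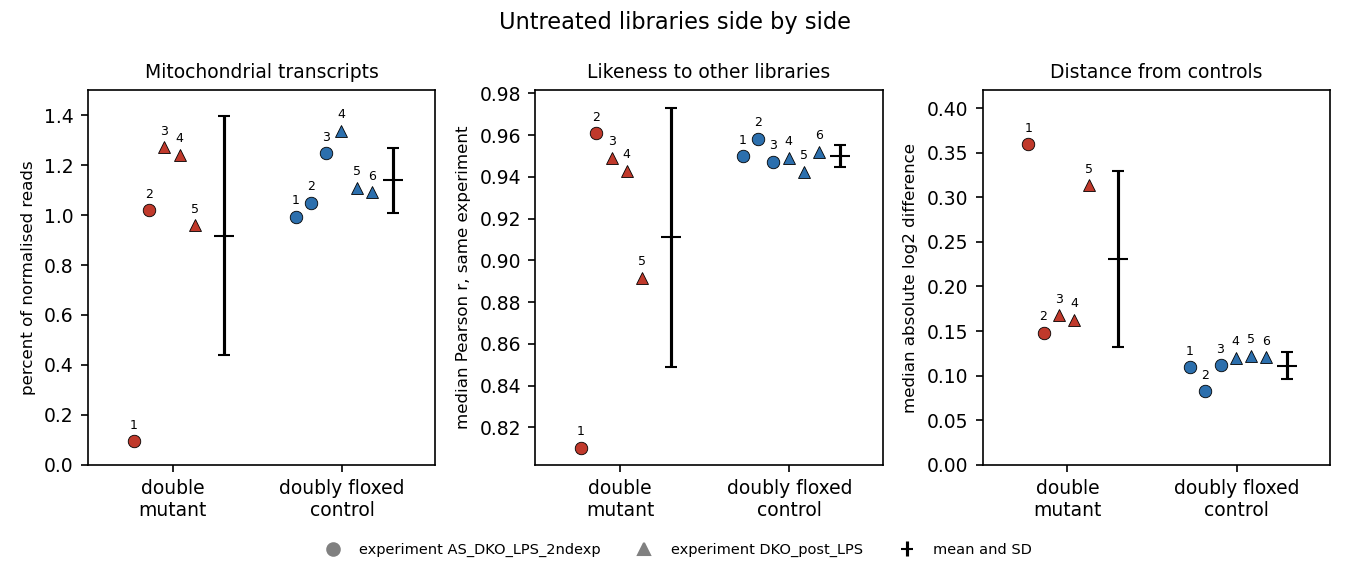
Mitochondrial share (percent of normalised reads), median Pearson correlation with libraries of the same experiment, and median absolute log2 difference from the control mean of the same experiment, for each library, with mean and SD; circles and triangles mark the experiments. Double mutants 1 and 5 lie farthest from the controls, at 0.360 and 0.314, against 0.148 to 0.168 in the other double mutants and 0.082 to 0.122 in the controls. Each control counts in the mean it is set against, which lowers its distance. The gap between the controls and the other double mutants is therefore partly set by the calculation.

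The deletion of Il10ra was visible in every double mutant library. Il10ra had 37.1, 31.7, 9.75, 24.0 and 32.2 normalised reads in double mutants 1 to 5, against 533, 503, 504, 409.6, 471 and 476 in controls 1 to 6. The groups did not overlap, and each double mutant library held 2.16% to 7.23% of the mean of the controls in its own experiment. The means were 27.0 ± 10.7 in double mutants and 483 ± 42.4 in controls (SD, n = 5 and 6), a log2 fold change of -4.19 ± 0.23 (SE; 95% confidence interval -4.68 to -3.69; adjusted p = 1.54e-07 by limma with Benjamini-Hochberg adjustment over 10025 genes). An exact 2-sided permutation test over all 462 assignments of the genotype labels gave p = 0.00433 for Il10ra, the smallest it allows. This test exchanges labels across the 2 experiments and does not take the experiment into account. Within the experiments the log2 fold change was -3.86 and -4.45, and without double mutant 4 it was -4.22. Without that library Tnf stood at -2.11 and Cx3cr1, the Cre driver gene, at -1.49.

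Tnf was close to the detection limit in untreated microglia of both genotypes. It had 7.88, 11.3, 0, 0 and 0 normalised reads in double mutants 1 to 5, against 17.7, 13.6, 26.7, 15.2, 5.65 and 7.96 in controls 1 to 6. Each double mutant lay below every control of its own experiment, while across experiments the groups overlapped. The means were 3.83 ± 5.38 in double mutants and 14.5 ± 7.51 in controls (SD, n = 5 and 6). The log2 fold change of -2.24 ± 0.47 did not pass the test across all genes (limma with Benjamini-Hochberg adjustment, adjusted p = 0.717), and the exact permutation test of Tnf alone gave p = 0.0216. In the second experiment the 3 double mutants together held 0 Tnf reads against 18 reads in the 3 controls. With 3 reads over the group as the limit that a count of 0 allows, the level was 6.18-fold lower. This takes the 18 control reads as exact and leaves out their counting error. In the first experiment 23 reads in 2 double mutants stood against 72 reads in 3 controls, and the log2 fold change was -0.91. When all 37 libraries of the table, LPS-treated ones included, shared 1 estimate of the spread, 3 of the 10025 genes were called (0.0299%), and Tnf fell by 2.29 ± 0.43 on the log2 scale (limma, adjusted p = 0.0134; 0.0134 to 0.992 over all alternatives tried).

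Cx3cr1, which carries the CreER allele in the double mutants, was lower in each of them than in any control. It had 1162, 2929, 3083, 3102 and 1155 normalised reads in double mutants 1 to 5, against 4661, 5298, 5574, 5685, 5006 and 5335 in controls 1 to 6. Double mutants 2, 3 and 4 held 56.6% to 58.1% of the control mean of their experiment, while double mutants 1 and 5, the libraries that stood apart, held 22.4% and 21.6%. The group means were 2286 ± 1031 in double mutants and 5259.7 ± 377 in controls (SD, n = 5 and 6). The log2 fold change was -1.36 ± 0.26 and did not pass the test across all genes (limma with Benjamini-Hochberg adjustment, adjusted p = 0.489), and the exact permutation test of the gene alone gave p = 0.00433. Without double mutants 1 and 5 there were 2 genes called (0.02%), and the log2 fold change of Cx3cr1 was -0.80 ± 0.09 and passed (limma, adjusted p = 5.37e-05; 5.37e-05 to 0.992 over all alternatives tried). In these bulk samples fewer cells that express a gene and less RNA per cell cannot be told apart.

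**Figure D2:**
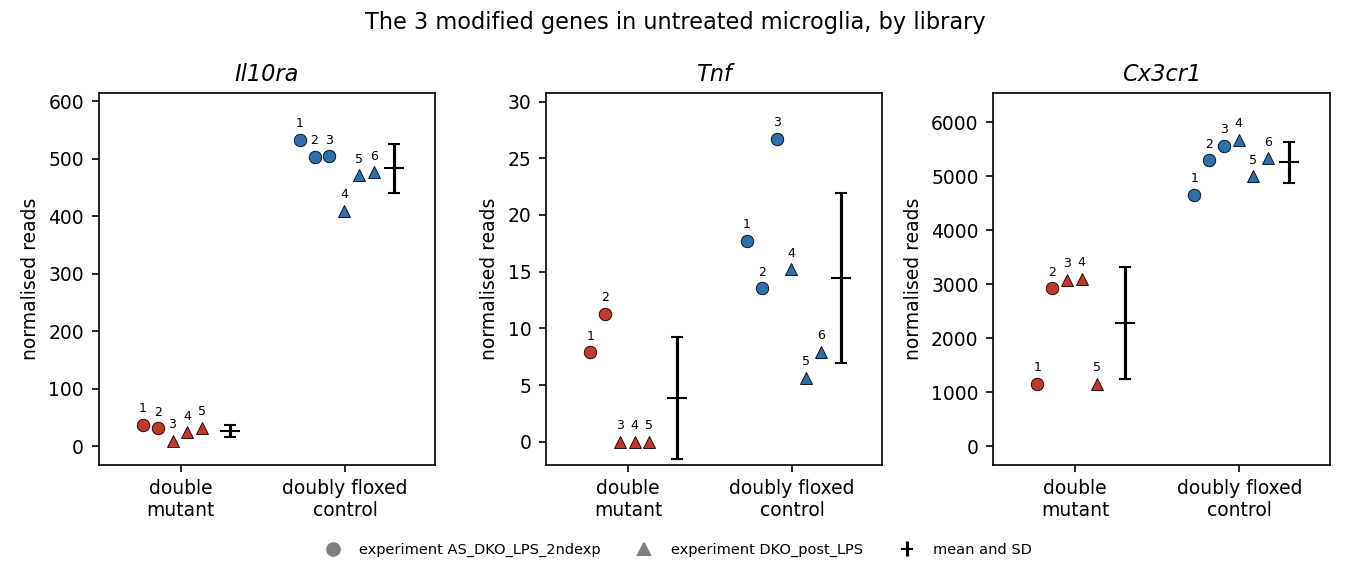
Normalised reads of Il10ra, Tnf and Cx3cr1 in each untreated library (linear axes), numbered by replicate, with mean and SD; circles and triangles mark the experiments. Il10ra and Cx3cr1 do not overlap between the groups, and Tnf lies at 0 in double mutants 3, 4 and 5.

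Beyond the deleted receptor, no gene passed the test across the transcriptome. Of 10025 genes tested, 1 was called (0.00998%), which was Il10ra, with 0 genes higher in double mutants (limma, adjusted p under 0.05). Without adjustment 633 genes had p under 0.05 (6.31%), 308 of them higher (3.07%) and 325 lower (3.24%) in double mutants. edgeR's quasi-likelihood test on recovered reads called 1 gene, and DESeq2 called 2, Il10ra and Cx3cr1. The 5 and 6 libraries did not overlap for 22 genes higher (0.219% of those tested) and 16 genes lower (0.16%) in double mutants.

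The precision differed between genes. The 95% confidence interval of the single gene, without adjustment, lay within 1 log2 unit of 0 for 7536 of the 10025 genes (75.2%). This held for 3765 of the 4013 genes with a mean of at least 50 normalised reads (93.8%). These intervals do not give the size of change that the test across all genes would call. Cx3cr1, at -1.36 with an interval of -1.91 to -0.81, was not called. Among those 4013 genes, 23 had a log2 fold change of at least 1 in size. The effects measured separately in the 2 experiments had a Pearson correlation of 0.231 across the 4013 genes, and of 0.213 without double mutants 1 and 5. Genes are not independent replicates, and this value is given as a description.

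Among genes with a mean of at least 20 normalised reads in 1 group, the following 9 were among those of lowest p after Il10ra and Cx3cr1, and none of them passed. Srsf4, which encodes a splicing factor, had 82.2, 45.8, 50.7, 48.1 and 58.6 normalised reads in double mutants 1 to 5, against 37.96, 39.8, 36.3, 30.5, 35.8 and 39.8 in controls 1 to 6. The groups did not overlap, and its log2 fold change was 0.61 ± 0.17, or 0.40 without double mutants 1 and 5. Ppox, a mitochondrial enzyme gene of haem synthesis, had 0.57 ± 0.15, Letm1, of the inner mitochondrial membrane, 0.71 ± 0.20, and Smarcd1, a chromatin remodelling subunit, 0.71 ± 0.21. Hnrnpl, which encodes an RNA-binding splicing regulator, had 0.83 ± 0.24, with 1.41 in the first experiment, 0.37 in the second, and 0.55 without double mutants 1 and 5. In the other direction Zfp626, a zinc finger gene, had 6.75, 8.45, 11.7, 15.6 and 10.3 normalised reads in double mutants 1 to 5, against 16.03, 21.7, 23.7, 23.7, 16.9 and 22.6 in controls 1 to 6. Here too the groups did not overlap, with a log2 fold change of -0.98 ± 0.24. Nmd3, a nuclear export adaptor of the large ribosomal subunit, had -0.90 ± 0.22, Tubgcp4, of the gamma-tubulin complex, -0.86 ± 0.24, and Naa25, an auxiliary subunit of a protein N-terminal acetyltransferase, -0.66 ± 0.19. Without double mutants 1 and 5, Nmd3 stood at -0.54 and Tubgcp4 at -0.55. Each of these 9 genes had an adjusted p of 0.717 by limma with Benjamini-Hochberg adjustment.

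**Figure D3:**
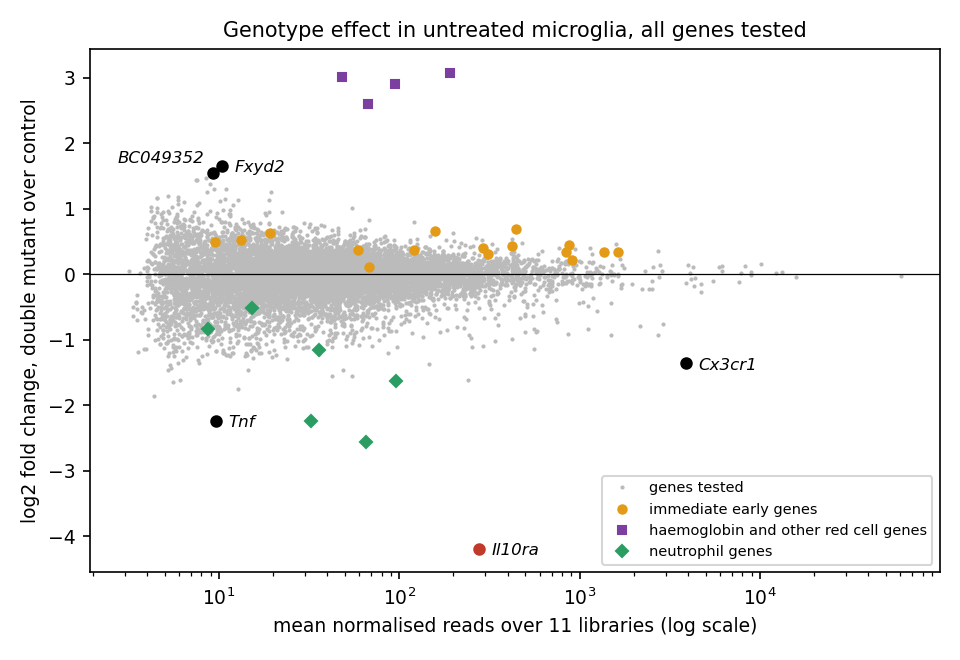
Log2 fold change of double mutants over controls (vertical axis) against the mean normalised reads over the 11 libraries (horizontal log axis) for all 10025 genes tested. Il10ra lies at -4.19; immediate early genes (circles) lie above 0, haemoglobin and other red cell genes (squares) between 2.60 and 3.07, and neutrophil genes (diamonds) below 0, and none of these passed the test.

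Around the deleted receptor, no other component of IL-10 signalling was called. Of the 9 genes of the IL-10 receptor and its signalling, 8 were tested, Il10ra was the 1 called, and the median log2 fold change was 0.01, against -0.01 over all genes tested. Il10rb, the shared second chain, averaged 204 ± 47.3 normalised reads in double mutants and 222 ± 32.2 in controls (SD, n = 5 and 6; log2 fold change -0.09 ± 0.11, or -0.05 without double mutants 1 and 5). Stat3 averaged 145.7 ± 45.2 in double mutants and 147 ± 13.2 in controls, with a log2 fold change of -0.03 ± 0.14, or 0.03 without double mutants 1 and 5. These partner genes were picked for their role after the values had been seen.

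Socs3, which encodes a feedback inhibitor of STAT3-activating cytokine receptors, had 364, 259, 287, 266 and 315 normalised reads in double mutants 1 to 5, against 249, 219, 176, 205, 220.3 and 249 in controls 1 to 6. The groups did not overlap, and the log2 fold change of 0.44 ± 0.13 did not pass the test (limma, adjusted p = 0.717). Of the 20 genes listed as responding to IL-10 and STAT3, 15 were tested and 0 were called, with 8 above 0, 7 below 0 and a median of 0.00.

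TNF receptors and the signalling genes downstream of them showed no called change. Of 20 listed genes 18 were tested and 0 were called, 8 lay above 0 and 10 below, and the median log2 fold change was -0.01. Tnfrsf1a, the receptor with a death domain, averaged 384 ± 116.4 normalised reads in double mutants and 364 ± 45.7 in controls (SD, n = 5 and 6). Tnfrsf1b, the other TNF receptor, averaged 176 ± 61.5 in double mutants and 148.5 ± 12.1 in controls. Its log2 fold change was 0.23 ± 0.14, or 0.04 without double mutants 1 and 5. Both receptors were picked for their role after the values had been seen.

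Ripk1, the kinase that links TNF receptors to NF-kB and to cell death, had 19.1, 23.9, 13.6, 18.4 and 11.7 normalised reads in double mutants 1 to 5, against 25.3, 24.4, 37.1, 37.2, 28.2 and 31.8 in controls 1 to 6. Every double mutant lay below every control, by a margin of less than 1 normalised read between double mutant 2 and control 2. Its log2 fold change was -0.79 ± 0.22 (limma, adjusted p = 0.717). Casp8, the initiator caspase of that pathway, averaged 147 ± 36.0 in double mutants and 110.7 ± 21.3 in controls, a log2 fold change of 0.40 ± 0.17 that did not pass either. Without double mutants 1 and 5 it was 0.20, and without double mutant 1 alone 0.26.

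NF-kB subunits and target genes had a median log2 fold change of 0.21, with 13 of 18 tested genes above 0 and 0 called. Their 3 members of lowest p did not share a direction. Cxcl10, a chemokine of the interferon and NF-kB response, averaged 40.4 ± 23.4 normalised reads in double mutants and 24.3 ± 10.97 in controls, with a log2 fold change of 0.72 ± 0.28. Relb, an NF-kB subunit of the alternative pathway, had a log2 fold change of 0.53 ± 0.22, or 0.31 without double mutants 1 and 5. Nfkbiz, which encodes a nuclear regulator of NF-kB targets, had one of -0.65 ± 0.25. None of these values passed the test.

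Among cytokines and chemokines, 14 of 20 listed genes reached the filter and 0 were called. Il18, which encodes a cytokine activated by inflammasomes, had 64.2, 83.8, 93.6, 97.6 and 79.1 normalised reads in double mutants 1 to 5, against a lowest of 101.7 and a highest of 126.5 in the controls. The groups did not overlap, and the log2 fold change of -0.49 ± 0.14 did not pass the test (limma, adjusted p = 0.717). Spp1, which encodes the secreted phosphoprotein osteopontin found in reactive microglia, had 11.3, 9.16, 21.4, 15.6 and 7.32 normalised reads in double mutants 1 to 5. In controls 1 to 6 it had 1.69, 1.81, 2.97, 10.2, 7.53 and 5.31. The groups overlapped, with a log2 fold change of 1.26 ± 0.37 (limma, adjusted p = 0.717).

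Immediate early genes, which are transcribed within minutes of a stimulus and also during tissue dissociation, had 0 called members. All 16 tested members of the 18 listed had a log2 fold change above 0, as had 4798 of all 10025 genes tested, and without double mutants 1 and 5 it was above 0 for 16 members and 4869 of all genes. Of these 16 genes, 5 had an unadjusted p under 0.05 in the higher direction, against 308 of all 10025 (3.07%), and the median was 0.39, against -0.01 over all genes. In each library the median of the list relative to the controls of the same experiment was 0.505, 0.077, 0.365, 0.699 and 0.429 in double mutants 1 to 5, against 0.064, -0.189, 0.033, 0.206, -0.265 and 0.120 in controls 1 to 6. Double mutant 2 lay within the range of the controls, and the other 4 lay above it. Each control counts in the mean it is set against and no double mutant does, which draws the controls towards 0. The median was 0.26 in the first experiment and 0.53 in the second, and 0.33 without double mutants 1 and 5.

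Ier2, a nuclear protein gene of this list, had 498, 433, 489, 502 and 558 normalised reads in double mutants 1 to 5, against 369, 323, 358, 416, 371 and 350.2 in controls 1 to 6. The groups did not overlap, with a log2 fold change of 0.43 ± 0.10 (limma, adjusted p = 0.717). Junb and Jund, which encode subunits of the transcription factor AP-1, had log2 fold changes of 0.45 ± 0.13 and 0.69 ± 0.24, and of 0.30 and 0.31 without double mutants 1 and 5. Jund had 1125 normalised reads in double mutant 5, against 357 to 550.5 in the other double mutants and 246 to 447 in controls. Fos and Jun, 2 further AP-1 genes named for their role after the values had been seen, had log2 fold changes of 0.33 ± 0.16 and 0.35 ± 0.17. Jun stood at 0.13 without double mutants 1 and 5 and at 0.12 without double mutant 1 alone, and Fos at 0.19 without control 5.

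Cdkn1a, which encodes the cell cycle inhibitor p21, had 144.1, 162, 154, 198 and 109.8 normalised reads in double mutants 1 to 5, against 104, 100.3, 141, 98.2, 56.5 and 59.7 in controls 1 to 6. The groups overlapped through control 3 and double mutant 5, which come from different experiments. The log2 fold change of 0.80 ± 0.20 did not pass the test (limma, adjusted p = 0.717). Klf2, a transcription factor gene that restrains inflammatory activation of myeloid cells, had a log2 fold change of 0.65 ± 0.21, made up of 0.09 in the first experiment and 1.11 in the second.

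**Figure D4:**
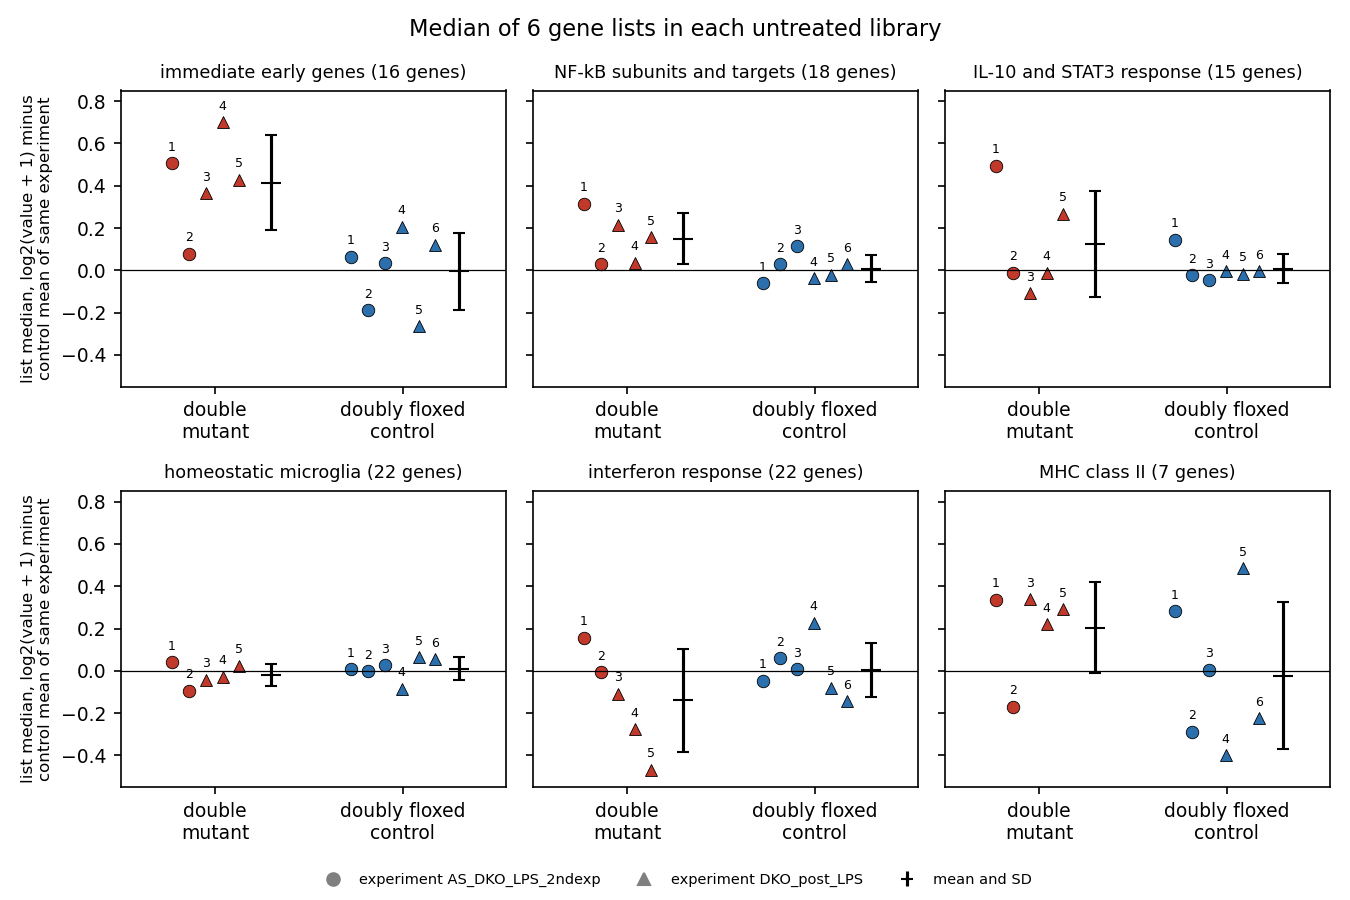
Median log2(normalised reads + 1) of 6 gene lists in each library, relative to the control mean of the same experiment, with mean and SD; circles and triangles mark the experiments. The immediate early genes lie between 0.077 and 0.699 in double mutants and between -0.265 and 0.206 in controls, and in the other 5 lists the groups overlap as well. Each control counts in the mean it is set against, which draws it towards 0.

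The genes that define homeostatic microglia were abundant in all 11 libraries. Their summed level was 109980 to 147010 normalised reads in double mutants and 112590 to 133950 in controls. All 22 listed genes were tested and 0 were called, with a median log2 fold change of -0.03. P2ry12, an ADP receptor of microglial processes, averaged 4341 ± 1209 normalised reads in double mutants and 4992 ± 386 in controls (SD, n = 5 and 6). Tmem119, a microglial surface marker, averaged 4201 ± 918 in double mutants and 3838 ± 405 in controls. Both were named as markers after the values had been seen, and each changed the sign of its small log2 fold change when double mutants 1 and 5 were left out.

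Some microglial genes departed in single libraries. Gpr34, a receptor for lysophosphatidylserine, had 100.2, 1054, 1169.8, 1151 and 1448 normalised reads in double mutants 1 to 5, against 1108 to 1464 in controls. Its log2 fold change was -0.83 ± 0.47, or -0.13 without double mutants 1 and 5. Only double mutant 1 lay far below the controls, and that library was under 50% of the lowest other library in 197 of the 4013 genes with a mean of at least 50. Mertk, a receptor for the uptake of dying cells, had 749.7 and 643 normalised reads in double mutants 1 and 5, and 1188 to 1398 in the other double mutants, against 1142 to 1607 in controls.

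Transcription factors of microglial identity and the genes of neurodegeneration-associated microglia gave 0 called genes among 16 and 20 tested, with medians of -0.01 and 0.01. Cebpa, a myeloid transcription factor gene, had a log2 fold change of 0.39 ± 0.18, which was 0.08 without double mutants 1 and 5. Clec7a, a receptor for fungal beta-glucans that is raised in plaque-associated microglia, averaged 4.79 ± 2.55 normalised reads in double mutants and 12.7 ± 11.4 in controls.

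Interferon response genes had a median log2 fold change of -0.13 over 22 tested genes, 8 above 0 and 14 below, with 0 called. The median was 0.08 in the first experiment and -0.31 in the second. Ifit2 and Ifi204, both interferon-induced, had log2 fold changes of -0.80 ± 0.30 and -0.70 ± 0.28 (-0.32 for Ifi204 without double mutants 1 and 5), while Xaf1, another interferon-induced gene, had 0.63 ± 0.30. Antigen presentation genes of major histocompatibility complex class II lay above 0 in 7 of 7 tested genes with a median of 0.23, and 0 were called. Without double mutants 1 and 5, 5 of the 7 lay above 0 and the median was 0.12. H2-Eb1, a class II beta chain gene, averaged 74.7 ± 50.6 normalised reads in double mutants and 48.5 ± 50.5 in controls, so that the spread within either group exceeded the difference. Its log2 fold change was 0.67 ± 0.45, or 0.22 without double mutants 1 and 5.

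Toll-like receptor and LPS-sensing genes had 3 members above 0 and 11 below among 14 tested, with a median of -0.09 and 0 called. Tlr7, an endosomal receptor for single-stranded RNA, had a log2 fold change of -0.98 ± 0.41, which was -0.21 without double mutants 1 and 5. Heat shock genes had a median of 0.20 over 13 tested genes, but -0.08 in the first experiment and 0.44 in the second. Hspa8, a constitutive chaperone gene, had 298 and 230.3 normalised reads in double mutants 1 and 2 and 60.4, 103 and 51.2 in double mutants 3 to 5. In controls 1 to 3 it had 224, 230.5 and 332, and in controls 4 to 6 it had 35.5, 26.4 and 37.1, so the level differed more between experiments than between genotypes. The experiment term of the fit called 355 genes (3.54%).

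Proliferation genes gave 0 called genes among 16 tested, 10 above 0 and 6 below, with a median log2 fold change of 0.17, and 0.23 without double mutants 1 and 5. In each library the median of the list relative to the controls of the same experiment was 0.429, 0.210, 0.448, 0.304 and 0.203 in double mutants 1 to 5, against 0.177, -0.177, -0.043, -0.185, 0.0752 and 0.106 in controls 1 to 6. The median of every double mutant lay above that of every control, by the least between double mutant 5 and control 1. Since each control counts in the mean it is set against, the controls are drawn towards 0 and this gap is partly set by the calculation. The number of the 16 genes above 0 did not separate the groups. It was 10, 10, 11, 11 and 9 in double mutants 1 to 5, against 13, 5, 6, 6, 9 and 9 in controls 1 to 6. The log2 fold changes ran from -0.39 for Mki67 to 0.87 for Cdk1. In untreated mice with the Il10ra deletion alone the median was 0.26 over 14 tested genes. After LPS, in double mutants against their own treated controls, it was -0.27 at 6 h and -0.33 at 48 h. Mcm2, a replication licensing gene, averaged 16.8 ± 6.74 in double mutants and 9.12 ± 2.18 in controls, with a log2 fold change of 0.72 ± 0.26 that did not pass, and 0.47 without double mutants 1 and 5.

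The remaining lists gave 0 called genes each. On the side above 0, the median log2 fold change was 0.12 over 15 MHC class I genes and 0.05 over 17 genes of the glucocorticoid response and clock. It was 0.04 over 15 cholesterol and lysosome genes and 0.01 over 17 complement and phagocytosis genes, 14 glycolysis and hypoxia genes and 13 inflammasome and cell death genes. On the side below 0, it was -0.08 over 12 genes of TGF-beta signalling, -0.10 over 19 nuclear genes of oxidative phosphorylation and -0.10 over 20 ribosomal protein genes. Without double mutants 1 and 5 the sign turned for MHC class I (-0.07), cholesterol and lysosome (-0.05), complement and phagocytosis (-0.14) and glycolysis and hypoxia (-0.12), and the inflammasome and cell death median was -0.0014. Tap2, which encodes a peptide transporter subunit for class I loading, averaged 150.2 ± 40.8 normalised reads in double mutants and 106.1 ± 12.9 in controls, with a log2 fold change of 0.46 ± 0.17 that was 0.17 without double mutants 1 and 5.

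Markers of other cells varied strongly between libraries and passed in no case. The summed red cell markers, led by haemoglobin genes, were 822, 189, 273, 438 and 7.32 normalised reads in double mutants 1 to 5, against 5.06, 5.42, 2671, 6.77, 3.77 and 21.2 in controls 1 to 6. Double mutants 1 to 4 and control 3 were high, and Hbb-bs had a log2 fold change of 3.07 ± 1.39 (limma, adjusted p = 0.717). The 13 neutrophil markers, of which 6 were tested, summed to a lowest of 9.86, a median of 19.0 and a highest of 903 in double mutants, against 5.19, 174 and 944 in controls. Mmp8, Elane and Cxcr2 were at 0 in all 11 libraries. All 6 tested neutrophil genes lay below 0, with a median log2 fold change of -1.39, and double mutant 3 was high beside controls 4 and 5. Monocyte markers summed to 33.8 to 97.5 in double mutants and 28.0 to 103 in controls, and border macrophage markers to 33.8 to 101 in double mutants and 30.4 to 168 in controls. All 5 tested border macrophage genes lay below 0, with a median log2 fold change of -0.31. Relative to the controls of the same experiment 4 of the 5 double mutants lay below every control. Here too each control counts in the mean it is set against, so this gap is partly set by the calculation. Pf4, a chemokine gene of border macrophages, had -1.21 ± 0.36, or -0.63 without double mutants 1 and 5, and did not pass. The part of red cell, neutrophil and border macrophage transcripts in the other values was not tested. Summed lymphocyte markers (2 of 14 in the table) were 484 to 755 in double mutants and 524 to 909 in controls, those of astrocytes 260.1 to 341 in double mutants and 288 to 404 in controls, and those of oligodendrocytes 138.05 to 183 in double mutants and 129.9 to 184 in controls. Neuron markers summed to 1.95 to 11.7 in double mutants and 3.71 to 13.6 in controls, and endothelial and pericyte markers to 8.79 to 17.5 in double mutants and 8.46 to 16.9 in controls. Of these lists, 2 lymphocyte, 3 astrocyte, 4 oligodendrocyte, 0 neuron and 1 endothelial and pericyte gene were tested and 0 were called.

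Genes beside the modified loci were examined because the CreER allele and anything linked to it differ between the groups. This reason applies to the Cx3cr1 locus, since both groups are homozygous for the floxed Il10ra and Tnf alleles. Cx3cr1 lies on chromosome 9, as does Il10ra. Of the 20 tested genes nearest Il10ra, on chromosome 9 from 45253837 to 45269149 (mm10, RefSeq annotation of GRCm38.p6), 13 lay above 0 and 7 below, 0 were called, and 3 had an unadjusted p under 0.05. The 20 genes nearest Tnf gave 11 above and 9 below, and the 20 nearest Cx3cr1 gave 13 above and 7 below, with 0 called at either locus. Those with an unadjusted p under 0.05 numbered 3 at Tnf and 1 at Cx3cr1, beside 6.31% of all genes tested.

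The 2 tested genes that lie closest to Il10ra on its 2 sides had the largest log2 fold changes of its neighbourhood, and were named after their values had been seen. BC049352, at 45195688 to 45251370 and 2.5 kb from Il10ra, had 15.8, 9.86, 7.80, 24.0 and 16.1 normalised reads in double mutants 1 to 5, against 1.69, 5.42, 9.64, 5.08, 5.65 and 1.33 in controls 1 to 6. Only control 3 reached into the range of the double mutants, and the log2 fold change was 1.54 ± 0.44 (limma, adjusted p = 0.717). Fxyd2, at 45399709 to 45410278 and 130.6 kb away, encodes a regulatory subunit of the sodium-potassium pump. It had 12.4, 23.9, 1.95, 35.4 and 14.6 normalised reads in double mutants 1 to 5, against 0.844, 4.52, 5.93, 10.2, 3.77 and 1.33 in controls 1 to 6. Double mutant 3 lay among the controls and the other 4 lay above them, with a log2 fold change of 1.65 ± 0.62 (limma, adjusted p = 0.717).

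BC049352 had a log2 fold change of 1.42 ± 0.45 at 6 h and 1.64 ± 0.48 at 48 h after LPS in double mutants against their own treated controls. In untreated mice with the Il10ra deletion alone it was 1.22 ± 0.26 in a fit of 9 mutant and 6 control libraries. Il10ra mutants 7 to 9 came from an experiment without controls, so the fold changes of that line rest on mutants 1 to 6. BC049352 had 9.498 to 20.1 normalised reads in mutants 1 to 6, 13.7 to 24.9 in mutants 7 to 9 and 3.07 to 11.1 in controls. Fxyd2 had 1.25 ± 0.46 at 6 h, 0.61 ± 0.49 at 48 h, and 1.39 ± 0.40 in untreated Il10ra mutants. None of these values passed the test (limma with Benjamini-Hochberg adjustment). The sources used here do not say whether reads were counted by strand.

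**Figure D5:**
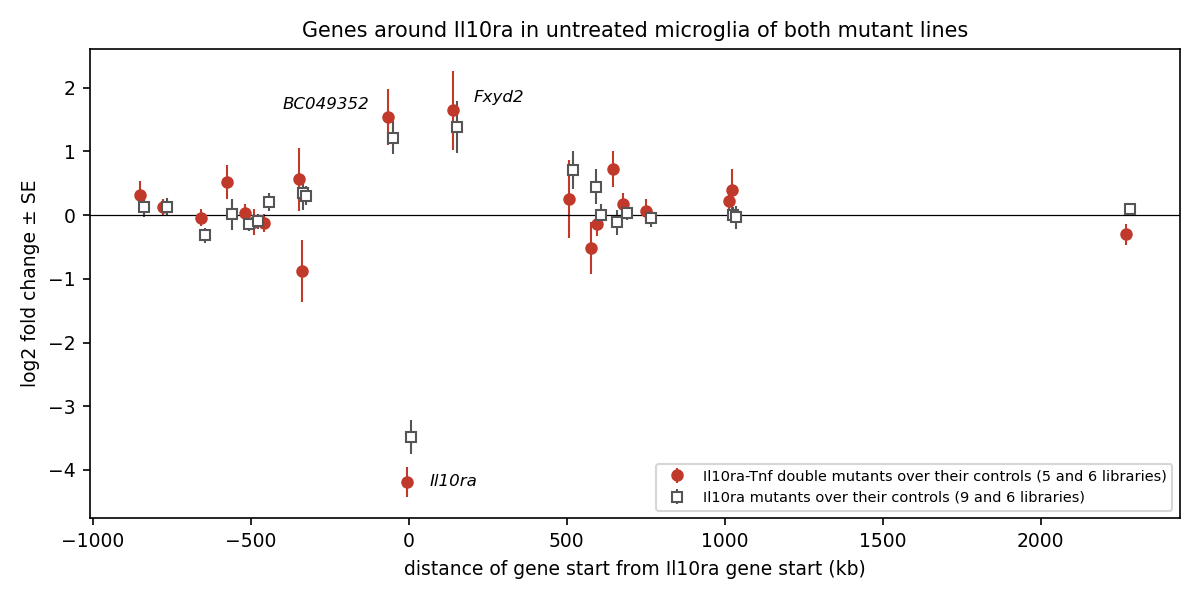
Log2 fold change with SE (vertical axis) for tested genes by distance of their start from that of Il10ra in kilobases (horizontal axis), in double mutants over controls (filled circles) and in Il10ra mutants over their controls (open squares). BC049352 at 1.54 and 1.22 and Fxyd2 at 1.65 and 1.39 stand above their neighbours in both lines, without passing the test. Of the 9 Il10ra mutants, 7 to 9 had no control in their experiment, so the open squares rest on mutants 1 to 6.

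The untreated Il10ra mutants offer the nearest comparison, in a table that was normalised separately, so no test was made between the lines. The log2 fold changes of that line rest on Il10ra mutants 1 to 6, since mutants 7 to 9 came from an experiment without controls. There 2 of 9921 genes were called (0.0202%), Il10ra at -3.48 ± 0.26 and Cx3cr1 at -0.95 ± 0.10 (limma, adjusted p = 3.09e-05). Tnf is intact in that line. It had 17.2 to 33.3 normalised reads in Il10ra mutants 1 to 6 and 21.5 to 37.5 in their controls. Mutants 7 to 9, without controls of their own experiment, had 41.4 to 74.7. Cdkn1a had a log2 fold change of 0.77 ± 0.15 there (limma, adjusted p = 0.134), beside 0.80 in the double mutants. Ier2 had -0.07 ± 0.14, Socs3 -0.13 ± 0.13, Il18 -0.05 ± 0.12 and Ripk1 0.06 ± 0.20 in Il10ra mutants, and the median of the immediate early list was -0.08.

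At 6 h after LPS, Tnf averaged 10.9 ± 11.4 normalised reads in double mutants and 399 ± 162 in controls at 6 h, and the log2 fold change there was lower than the untreated one by a difference of -3.36 ± 0.60 (limma interaction, adjusted p = 0.021; 0.00846 to 1.0 over all alternatives tried). Untreated Tnf was low, with 0 reads in double mutants 3 to 5 and a mean of 14.5 normalised reads in controls. Double mutants 1 and 2 held 40.8% and 58.3% of the control mean of their experiment. The difference was -3.11 without double mutant 1 and -2.98 without double mutant 2, and -3.55 without double mutant 3, 4 or 5. With a pseudocount of 0.5 the untreated log2 fold change was -2.77, and with one of 5 it was -1.15. A difference from the 6 h value therefore does not show that the deletion acted more strongly after LPS. Tnf was the 1 gene of 11800 called for a difference between 6 h and untreated (0.00847%), and 0 genes were called for a difference at 48 h. The genotype effects themselves gave 8 called genes at 6 h (0.0678%) and 2 at 48 h (0.0169%). The call of a difference for Tnf was lost without double mutants 1 and 5, at -3.29 with an adjusted p of 0.0748 (limma). It was also lost without control 1, 2 or 5 or double mutant 1 or 2 (limma, adjusted p = 0.0545 to 0.0821), without the experiment term, and with edgeR (-3.97, adjusted p = 0.371). Il18 differed between 6 h and untreated by 0.76 ± 0.18 (limma, adjusted p = 0.299) and Ripk1 between 48 h and untreated by 1.17 ± 0.25 (limma, adjusted p = 0.481), and neither passed.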

How the data were processed

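The authors deposited a gene table of normalised reads, used here as signal per gene and library. The libraries are MARS-seq 3' tag libraries per the labels, and the genome build was mm10 per the submitters' processing notes. No source used here names the aligner, the counter or the scaling method. Every value was a whole multiple of its column's lowest step (100% within a tolerance of 0.01), and the whole reads obtained this way served edgeR 4.0.16 and DESeq2 1.42.0 as alternatives.

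The 11 untreated libraries were fitted with limma 3.58.1 (R 4.3.3, trend) on log2(value + 1), which understates the change of low genes, with terms for experiment and genotype. The 10025 genes that reached 5 normalised reads in 5 or more libraries were tested, with Benjamini-Hochberg adjustment and calls at an adjusted p under 0.05. The labels do not say that samples of a group are separate animals, so p-values measure the spread between these samples. Limits from read counts cover the counting error of the double mutants only and take the control reads as exact. Differences between LPS and untreated effects came from 1 fit over 37 libraries and 11800 genes, without a 48 h library whose labels conflict. The main fit was also run on simulated counts. These held no difference between experiments and no library that stood apart, so that check covers neither. RefSeq (GRCm38.p6) gave positions for 9590 of the genes tested.

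Named genes were Il10ra, Tnf and Cx3cr1, the 10 genes of lowest p in each direction with a mean of at least 20 in 1 group and without Gm or Rik names, and the 3 of lowest p in each of 32 lists. This rule gave 99 genes, not all of which are described, and others are marked in the text. The members and lists were chosen with earlier results of these data known. Alternatives covered pseudocounts, filters, scaling, count models, covariates and left-out libraries.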

Additional observations from a re-analysis of the deposited data

Results flagged for a closer look

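Single libraries stood far from the rest of their group in 11 cases, over 69 measures examined in each of the 2 groups, where chance alone flags about 1 in 20 groups. Double mutant 1 held 0.0948% mitochondrial transcripts, against 0.959% to 1.27% in the other double mutants. The same library had 174 normalised reads of Hnrnpl, an RNA-binding protein gene, against 58.5 to 78.9 in the other double mutants, and 77.7 of the scaffold gene Slc9a3r1, against 41.0 to 49.8. It also had 2884 of Jun, against 1405 to 1786, and double mutant 5 had 1125 of Jund, against 357 to 550.5.

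Neutrophil granule genes were high in double mutant 3, with 232 normalised reads of S100a8 against 0 to 11.3 in the other double mutants, 355 of S100a9 against 2.82 to 27.0, and 89.7 of Camp against 0 to 25.9. Haemoglobin genes were high in control 3, with 1236.5 of Hbb-bs against 1.69 to 10.6 in the other controls, 649.8 of Hba-a1 against 0 to 2.71, and 290.03 of Hbb-bt against 0 to 3.38. Without control 3 no further gene was called in the comparison.

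The double mutant effect on Tnf at 6 h after LPS differed from that in untreated mice by -3.36 on the log2 scale, by the interaction test of limma. Untreated double mutants 3 to 5 held 0 Tnf reads. The untreated log2 fold change was -0.91 in the first experiment and -3.31 in the second. The call was lost with edgeR, without the experiment term, and when control 1, 2 or 5 or double mutant 1 or 2 was left out.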

How the results depend on the processing

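Over pseudocounts, filters, scalings, count models, covariates and left-out libraries, Il10ra stayed called at -4.47 to -3.86 on the log2 scale, and it was the gene called whenever 1 was called. The count of genes called was 2 with DESeq2, 3 in the fit over all libraries of the table and 2 without double mutants 1 and 5 (chosen after seeing the data), against 1. The added calls were Cx3cr1, at -1.22, -1.34 and -0.80 under those settings, and Tnf at -2.29 in the fit over the whole table. Leaving out each library in turn gave 1 gene each time, while genes with an unadjusted p under 0.05 numbered 420 without control 2 and 1244 without double mutant 2, against 633, with -4.32 to -3.92 for Il10ra, -2.59 to -1.93 for Tnf and -1.56 to -1.11 for Cx3cr1. Both edgeR and DESeq2 left Tnf uncalled, at -1.61 and -1.86. A filter at 20 normalised reads left Tnf out and gave no value for it.

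The gene called for a difference between 6 h and untreated, Tnf, was lost with edgeR, with no experiment term and without double mutants 1 and 5 (0 genes each), and the count was 0 to 1 when single libraries were left out, with a difference of -3.58 to -2.98. Without controls 1, 2 or 5 or double mutants 1 or 2 it was lost. The cause was not tested. The differences for Il10ra at 6 h (-0.013 to 0.39 when single libraries were left out) and for Cx3cr1 at 48 h (-0.10 without double mutants 1 and 5) changed sign.

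The signs of 63 genes, most of them described above, were followed over the alternatives, and 15 of 1566 values changed sign, all of genes that had not passed. Without double mutants 1 and 5 the value was 0.015 for Mertk, 0.026 for Stat3, -0.18 for Tnfrsf1a, 0.031 for P2ry12 and -0.024 for Tmem119. Within the second experiment it was 0.055 for Gpr34, -0.0045 for Tnfrsf1a and -0.034 for Tnfrsf1b, and within the first 0.033 for Il10rb and 0.29 for Stat3. Stat3 was also 0.016 with DESeq2 and 0.0063 with edgeR. When single libraries were left out, Stat3 ranged from -0.10 to 0.090 and Tnfrsf1a from -0.087 to 0.187. The naming rule gave 99 genes, and those outside the 63 are not in this count. Some of them also changed sign without double mutants 1 and 5: Uqcrb (-1.11 to 0.085), Abca1 (-0.89 to 0.065), Ly96 (-0.88 to 0.26) and Cebpb (0.42 to -0.12). Others kept theirs, such as Hk2 (0.60 to 0.38) and Hif1a (-0.66 to -0.33). Of 773 list medians 19 moved by more than the spread between replicates, among them cytokines and chemokines (0.28 in the first experiment and -0.01 in the second). Depth limits Tnf, at 0 reads in 3 double mutants.

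Equal replicate numbers do not pair the libraries by their labels, and the deviations of same-numbered libraries correlated at -0.17 to 0.33 over 4013 genes. A replicate block on 10 libraries, with 3 residual degrees of freedom, called 1 gene, Il10ra at -3.90, and gave -2.02 for Tnf and -1.46 for Cx3cr1.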
